A study of Homo sapiens with 3 samples.

Results

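The genes described here encode the nuclear subunits of the mitochondrial oxidative phosphorylation complexes I, III, IV and V. They were chosen by symbol alone. A gene probe was a member when its transcript accession mapped, through RefSeq, to a protein-coding symbol that starts with NDUFA, NDUFB, NDUFC, NDUFS, NDUFV, UQCR, COX4I, COX5, COX6, COX7, COX8, ATP5F, ATP5M or ATP5P, and the NDUFAF assembly factors were left out. This gave 80 genes on 95 probes, of 21612 genes named on the arrays. A probe passed when it was well above background on all 3 arrays, and 75 members had such a probe, among 12031 genes. These were all 37 members of complex I, all 8 of complex III, 12 of 17 of complex IV and all 18 of complex V. *ATP5MF-PTCD1*, *NDUFC2-KCTD14* and *UQCRHL* are also protein-coding symbols of the rule, 83 in all, but no probe was named for them.

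HCT116, an established human colon cancer cell line, was treated for 48 h with control siRNA or with siRNA #7 or siRNA #8, both directed against *HOXA5* short RNA, a long non-coding transcript of the *HOXA6-HOXA5* region. The siRNAs were used at 10 nM, and all 3 groups were the same line, with no transgene named in the labels. Total RNA (400 ng) was labeled with 1 dye and hybridized to 1 Agilent SurePrint G3 array per condition. No difference therefore has a replicate check, and no gene is given a p-value for a single siRNA.

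The siRNA sequences, as the study lists them, are shown because both siRNAs overlap on their target. The 17 bases in capitals are shared, at positions 5 to 21 of siRNA #7 and 1 to 17 of siRNA #8:
siRNA #7: gagaAACUGAAAGACAACAUA
siRNA #8: AACUGAAAGACAACAUAggcg

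Complex I takes electrons from NADH, complex III passes them from ubiquinol to cytochrome c, and complex IV hands them to oxygen. The proton gradient that these complexes build is used by complex V, the ATP synthase, to make ATP. Most subunits are encoded in the nucleus, and a small set that includes the catalytic centre of complex IV is encoded in mitochondrial DNA. In colon cancer cells, as in other proliferating cells, these genes are broadly active.

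Promoter windows of RefSeq (build GRCh38.p14, 250 bases before to 50 after each transcript start) were searched on both strands for the letters of motifs of 3 factors known to bind promoters of this gene class. These were GCGCATGCG for NRF1, CCGGAAG for ETS factors such as GABP, and AAGATGGCG for YY1. The ETS and YY1 letters can share AAG where they adjoin. Of the passing members, 63 had a window. The NRF1 letters were found in 10 of them (15.9%), the ETS letters in 19 (30.2%) and the YY1 letters in 8 (12.7%). Over all 9513 passing genes with a window the shares were 4.37%, 22.7% and 4.87%, and over all 27305 genes of the table they were 2.34%, 12.2% and 2.14%. Of all 35116 windows, 1.92%, 10.3% and 1.75% held the respective letters, against 13.2%, 26.3% and 11.8% of the 76 windows of members. At least 1 of the 3 motifs stood in the windows of 32 of the 63 members (50.8%) and of 29.3% of the passing genes. No member window held the ETS and YY1 letters joined through AAG. *ATP5F1B*, *ATP5F1D*, *ATP5MC3*, *ATP5MF*, *ATP5MGL*, *COX4I2*, *COX6C*, *COX7A1*, *NDUFB5*, *NDUFB9*, *NDUFC2*, *NDUFS5* and *UQCRB* are among the members with no entry in the table.

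The windows of 3 members are printed, 5′ to 3′ on the strand of the gene, because their genes stand at the upper or lower end of the ratios described next and each holds another of the motifs, in capitals. *NDUFA6* (chr22:42090723-42091022, minus strand) holds the YY1 letters at bases 276 to 284 of the window, *NDUFB4* (chr3:120596086-120596385, plus strand) the NRF1 letters on both strands at bases 92 to 101, and *UQCR11* (chr19:1605413-1605712, minus strand) the ETS letters on both strands between bases 134 and 160:
NDUFA6: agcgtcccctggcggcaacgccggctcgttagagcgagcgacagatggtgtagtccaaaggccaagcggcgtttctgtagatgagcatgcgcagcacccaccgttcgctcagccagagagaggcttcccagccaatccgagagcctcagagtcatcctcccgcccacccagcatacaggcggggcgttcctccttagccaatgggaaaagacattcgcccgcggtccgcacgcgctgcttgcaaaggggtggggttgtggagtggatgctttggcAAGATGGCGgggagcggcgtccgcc
NDUFB4: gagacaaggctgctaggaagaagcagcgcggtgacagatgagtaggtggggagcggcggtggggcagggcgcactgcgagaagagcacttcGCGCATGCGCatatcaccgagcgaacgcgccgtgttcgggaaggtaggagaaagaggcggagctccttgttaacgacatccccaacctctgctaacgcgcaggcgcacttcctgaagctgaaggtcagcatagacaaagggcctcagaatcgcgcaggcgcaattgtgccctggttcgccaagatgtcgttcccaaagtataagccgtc
UQCR11: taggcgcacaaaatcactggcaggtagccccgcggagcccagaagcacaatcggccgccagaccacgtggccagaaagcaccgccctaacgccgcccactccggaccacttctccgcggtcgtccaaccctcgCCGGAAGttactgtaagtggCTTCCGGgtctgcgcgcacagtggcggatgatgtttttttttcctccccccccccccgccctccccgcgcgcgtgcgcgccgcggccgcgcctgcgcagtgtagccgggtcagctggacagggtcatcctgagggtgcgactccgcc

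Across the arrays, the processed signal is the spot intensity after background subtraction by the scanner software. The level of a probe is the log2 of its signal over the 75th percentile of the array. That percentile was 52.8 for control siRNA, 42.1 for siRNA #7 and 42.8 for siRNA #8. No spot was saturated. The only *HOXA5* probe had signals of 84.9, 52.6 and 58.5 in that order, and log2 ratios to control siRNA of -0.36 with siRNA #7 and -0.23 with siRNA #8. The spot-to-spot SD of these ratios, described below, was 0.25 and 0.26, so both were within 2 SD of 0. Whether the probe reads *HOXA5* short RNA was not tested. Of 9 colon epithelium markers 7 passed, and *VIL1* and *LGALS4* were not well above background on all arrays. Of 7 markers of other cells, *PTPRC*, *CD3E*, *PECAM1* and *COL1A2* did not pass. The other 3, *COL1A1*, *ACTA2* and *DES*, passed, with signals of 48.1, 33.7 and 75.1 in the control.

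The oxidative phosphorylation genes were read from bright probes. Over the 75 passing members the signal ran from 405.6 to 27730 in the control (median 5156), from 339.9 to 22950 with siRNA #7 (median 4520) and from 372.4 to 24330 with siRNA #8 (median 4620). The spot-to-spot error of a ratio, from probes printed 10 times, had a median SD of 0.14 with siRNA #7 and 0.15 with siRNA #8 on the log2 scale. It covers the spots of 1 array and leaves out variation between cultures. For the 4 members printed 10 times, *NDUFS5*, *NDUFS6*, *UQCRC2* and *COX7C*, this error was about 0.05, and the other 71 were read from 1 spot.

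As a group the members had small ratios to control siRNA. With siRNA #7 the median log2 ratio was 0.14 (SD over members 0.28), against 0.01 over all passing genes, but it was -0.17 when scaled by the E1A spike-in probes and -0.07 when the background was corrected by normexp. With siRNA #8 the median was 0.18 (SD 0.30), against 0.01 over all passing genes, and it was -0.03 under E1A scaling and 0.01 with normexp. In the 75th percentile scaling 47 members (62.7%) were above and 28 below the control in the siRNA #7 cells. In the siRNA #8 cells 58 (77.3%) were above and 17 below it. Of all passing genes 51.6% and 50.8% were above the control, shares that also stand beside the counts by complex below. Both comparisons use the same control array, so their values are given side by side only. E1A scaling shifted the median of all genes to -0.30 and -0.20. Relative to all genes the members stood 0.13 higher with siRNA #7 and 0.17 higher with siRNA #8. Both scalings move every gene of an array by the same constant, so this difference is equal under them by construction. That difference was -0.01 and 0.07 with normexp, and 0.02 and 0.08 with quantile normalization. With siRNA #7, 53 members (70.7%) differed from the control by more than 1 spot-to-spot SD and 24 (32.0%) by more than 2, against 57.7% and 29.7% of all passing genes. With siRNA #8, 50 (66.7%) and 25 (33.3%) did, against 59.3% and 31.3%.

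**Figure D1:**
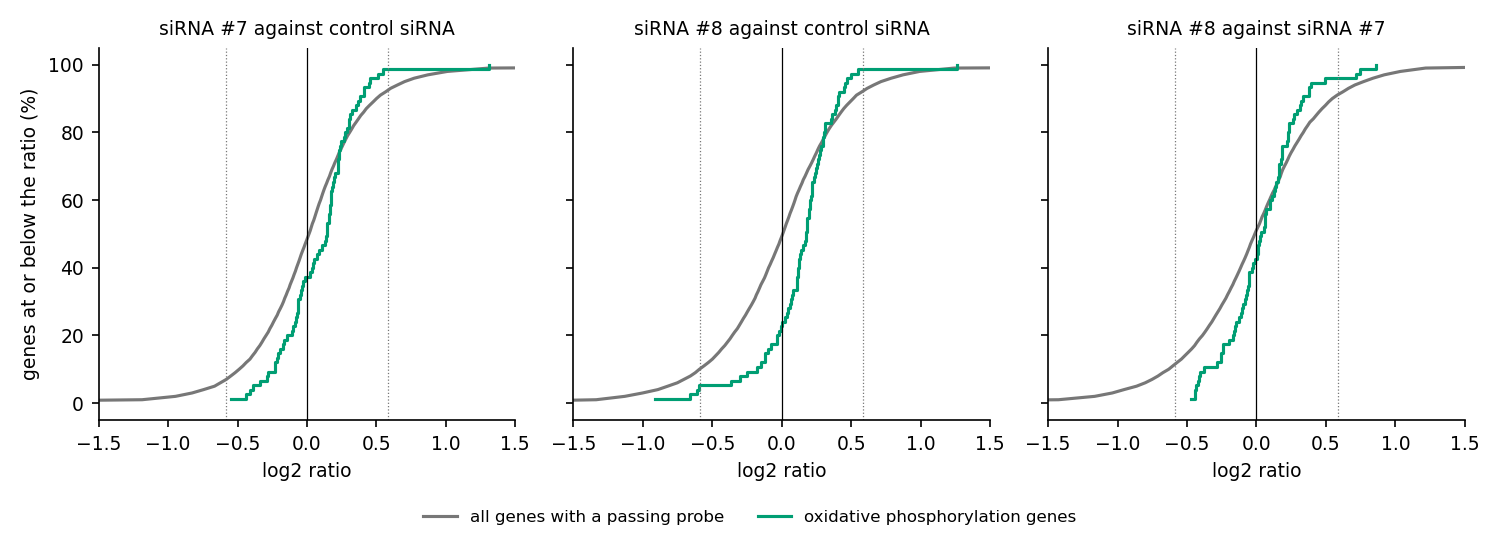
Cumulative share of genes (vertical axis, percent) at or below a log2 ratio (horizontal axis, cut at 1.5 on either side) for the 75 oxidative phosphorylation genes (green steps) and all 12031 passing genes (grey line), in each of the 3 comparisons; dotted lines mark 1.5-fold. The green line is steeper than the grey one, and in the comparisons with control siRNA its middle lies to the right, at medians of 0.14 and 0.18 against 0.01 in the 75th percentile scaling (-0.17 and -0.03 under E1A scaling).

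Few members were past 1.5-fold, a log2 ratio of 0.58, which was used as the size of a call. With siRNA #7, 1 member was at least 1.5-fold higher, where 7.56% of all passing genes were, and 0 were at least 1.5-fold lower, where 6.93% were. With siRNA #8, 1 member was higher (background 7.79%) and 4 were lower (background 10.3%). At 2-fold only *NDUFA6* remained with either siRNA. Bright probes had narrower ratios in general. Of the 75 members 59 lay in the brightest 10% of passing genes by mean level, a split chosen after seeing the data. Among the other 1145 genes there 42 were at least 1.5-fold higher and 32 lower with siRNA #7, and 37 and 82 with siRNA #8. Among the 59 members there these counts were 0 and 0, and 0 and 3. Above the control at any size were 64.4% and 79.7% of these members, and 57.0% and 54.9% of the other genes there. Within that split the median was 0.15 for the members and 0.04 for the other genes with siRNA #7, and 0.18 and 0.03 with siRNA #8.

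**Figure D2:**
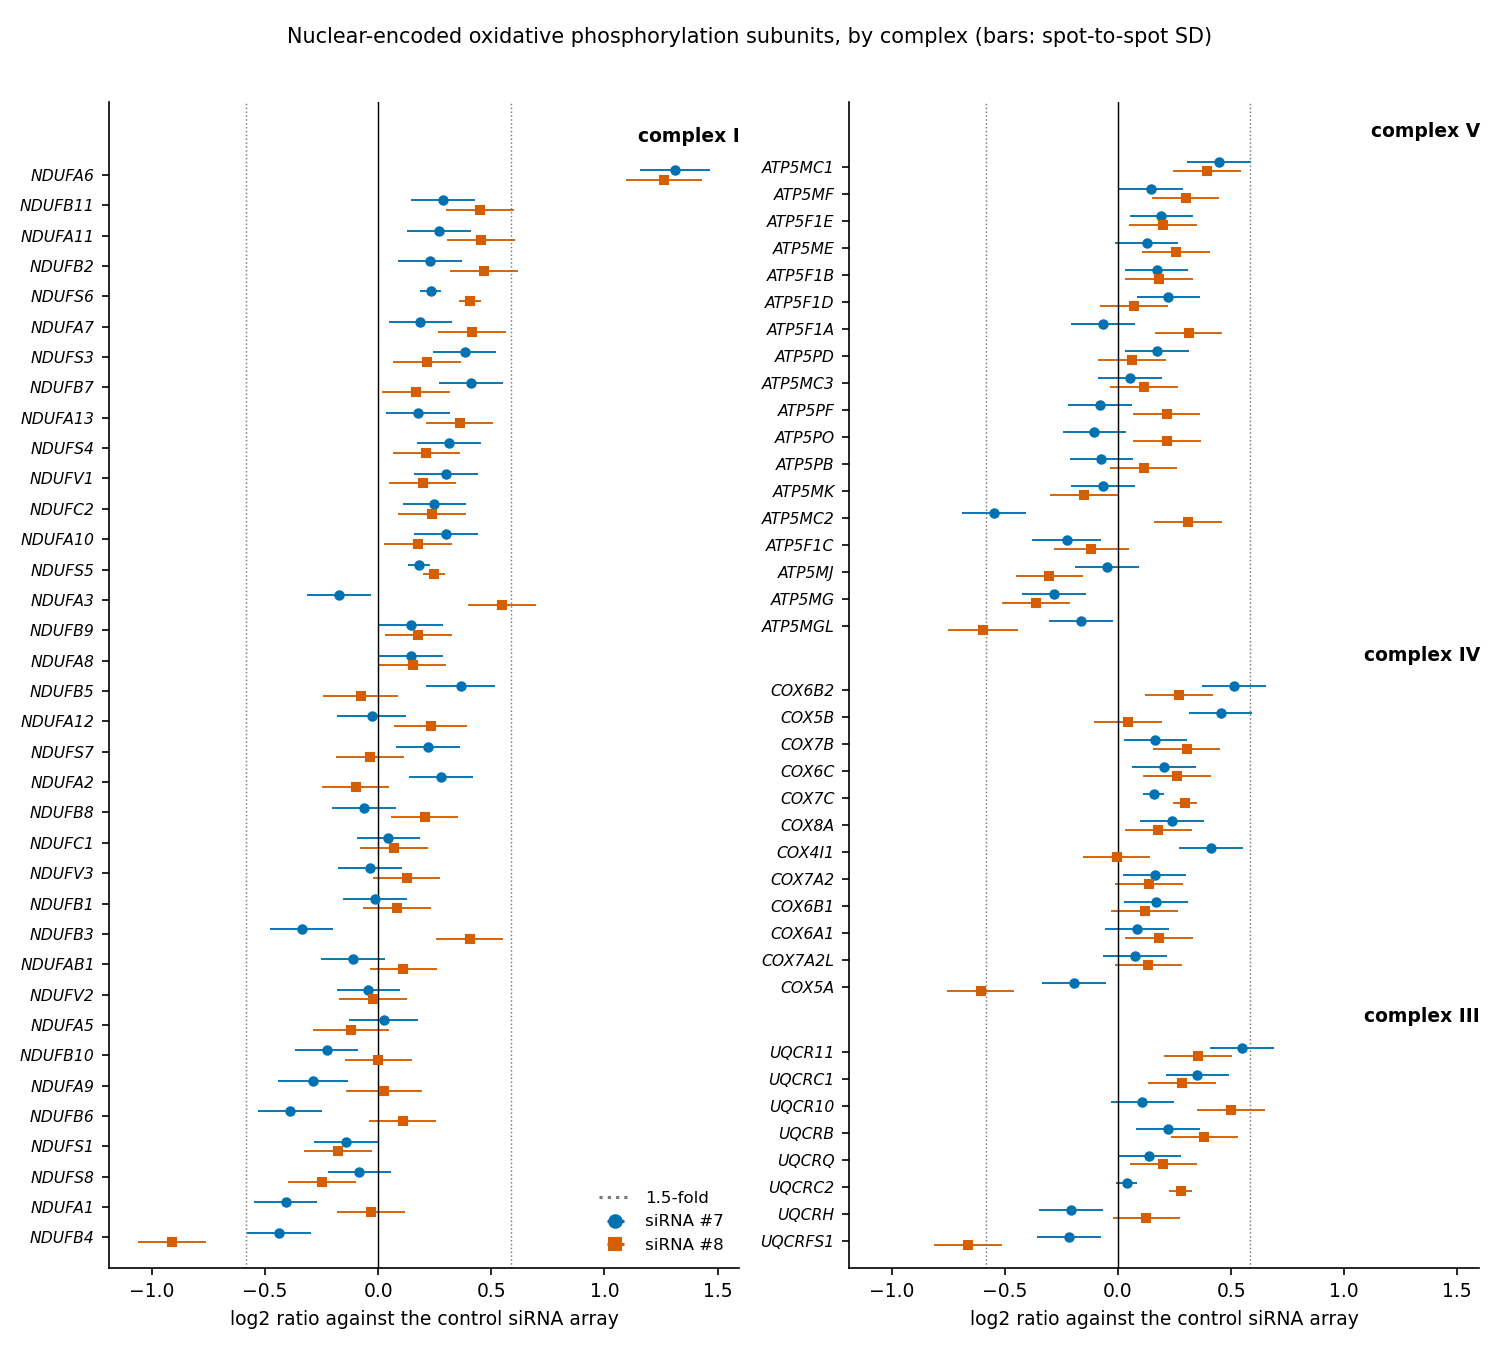
Log2 ratio to the control siRNA array (horizontal axis) of 74 of the 75 passing members (vertical axis, by complex, ordered by the mean of both ratios), for siRNA #7 (blue circles) and siRNA #8 (orange squares); bars show the spot-to-spot SD and dotted lines mark 1.5-fold. *NDUFA6* stands alone on the right at 1.31 and 1.26, and *NDUFB4*, *UQCRFS1*, *COX5A* and *ATP5MGL* pass the left line with siRNA #8.

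By the mean of both ratios, complex I held both the highest and the lowest member. Its median log2 ratio was 0.14 with siRNA #7 (22 of 37 higher than control) and 0.17 with siRNA #8 (28 of 37 higher), against -0.17 and -0.04 under E1A scaling and -0.10 and -0.02 with normexp. *NDUFA6*, an accessory subunit of the LYR protein family, had a signal of 405.6 in the control, 803.5 after siRNA #7 and 788.9 after siRNA #8, or levels of 2.94, 4.25 and 4.20. Both siRNA arrays were high and the control array low. The ratio was 2.49-fold with siRNA #7 (log2 1.31, spot-to-spot SD 0.16) and 2.40-fold with siRNA #8 (log2 1.26, SD 0.17). It rests on 1 spot per array, and the control spot enters both ratios. With the median of the neighbouring spots removed, the log2 ratios were 1.19 and 0.99.

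*NDUFB4*, an accessory subunit of the membrane arm, showed the opposite pattern. Its signal was 10140 in the control, 5957 after siRNA #7 and 4365 after siRNA #8, and its levels were 7.58, 7.14 and 6.67. The level was highest in the control and lowest with siRNA #8, with log2 ratios of -0.44 and -0.91 (spot-to-spot SD 0.14 and 0.15). This made it 1.88-fold lower with siRNA #8. With the median of the neighbouring spots removed, the ratio with siRNA #8 was -0.46, which is no longer past 1.5-fold.

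No NDUFS or NDUFV member of complex I was past 1.5-fold, and their log2 ratios ran from -0.14 to 0.38 with siRNA #7 and from -0.25 to 0.41 with siRNA #8. *NDUFV1*, which binds NADH and flavin, had levels of 6.39, 6.69 and 6.58 in control, siRNA #7 and siRNA #8 cells (log2 ratios 0.30 and 0.20). *NDUFS1*, the large iron-sulfur subunit, had levels of 5.69, 5.55 and 5.52 (log2 ratios -0.14 and -0.18). For *NDUFS1* both ratios were within 2 spot-to-spot SD of 0, and *NDUFV1* was past 2 SD with siRNA #7 only. The best measured members of this complex were *NDUFS5*, with log2 ratios of 0.18 and 0.25, and *NDUFS6*, with 0.23 and 0.41, each on 10 spots per array. By symbol, the 26 NDUFA, NDUFB and NDUFC members had medians of 0.09 and 0.17, and the 11 NDUFS and NDUFV members had medians of 0.22 and 0.13.

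In complex III the median log2 ratio was 0.12 with siRNA #7 (6 of 8 higher) and 0.28 with siRNA #8 (7 of 8 higher), and the value with siRNA #7 was -0.19 under E1A scaling and -0.04 with normexp. *UQCR11*, a small subunit, was the highest by the mean of both ratios, with levels of 8.16, 8.71 and 8.52 and log2 ratios of 0.55 and 0.35. With the neighbouring spots removed these were 0.22 and 0.48. *UQCRC1*, a core protein of the matrix side, had levels of 6.40, 6.75 and 6.68. Its log2 ratios were 0.35 and 0.28. *UQCRFS1*, the Rieske iron-sulfur protein that carries electrons toward cytochrome c, was the lowest of the complex. Its signal was 6799 in the control, 4663 after siRNA #7 and 3482 after siRNA #8. The levels of 7.01, 6.79 and 6.35 gave log2 ratios of -0.22 and -0.66, or 1.58-fold lower with siRNA #8. After removal of the neighbouring spots they were -0.04 with siRNA #7, within the spot-to-spot SD of 0.14, and -0.68 with siRNA #8. *UQCRC2*, on 10 spots, had ratios of 0.04 and 0.28 with an SD of 0.05.

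In complex IV the median was 0.17 with siRNA #7 (11 of 12 higher) and 0.16 with siRNA #8 (10 of 12 higher), against -0.15 and -0.05 under E1A scaling and -0.04 and -0.0026 with normexp. *COX4I1*, the common isoform of the subunit next to the catalytic core, had levels of 6.90, 7.32 and 6.90, so the siRNA #7 array was high and the other two were alike within the spot-to-spot SD. Its log2 ratios were 0.41 and -0.01. With the neighbouring spots removed they were 0.39 and 0.23. The siRNA #8 value was then above the control by more than the spot-to-spot SD of 0.15. *COX5A* was the exception in this complex. Its brightest probe had a signal of 7139 in the control, 4972 after siRNA #7 and 3798 after siRNA #8, with log2 ratios of -0.19 and -0.61. Its other passing probe had signals of 573.0, 827.2 and 1427, with log2 ratios of 0.86 and 1.62. The probes of *COX5A* therefore gave opposite directions, and the gene has no settled direction here. Which transcripts each probe reads was not tested.

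Most tissue-restricted isoforms of complex IV gave no signal well above background. *COX4I2*, known from lung, *COX6A2* and *COX7A1*, known from heart and skeletal muscle, and *COX7B2* and *COX8C*, known from testis, had no probe well above background on any array, with signals between 1.3 and 8.0. Their common counterparts were all detected. *COX6A1* had log2 ratios of 0.08 and 0.18, *COX7A2* of 0.16 and 0.14, *COX7B* of 0.17 and 0.30, *COX8A* of 0.24 and 0.18 and *COX6B1* of 0.17 and 0.12. None of these 5 was past 1.5-fold as measured. With the neighbouring spots removed, *COX7A2* had 0.62 with siRNA #7, which is past 1.5-fold, and 0.24 with siRNA #8. *COX6B2*, the testis isoform of *COX6B1*, had 1 probe not well above background (signals of 1.8, 1.7 and 1.6) and 1 bright probe with signals of 1609, 1831 and 1573. The bright probe gave log2 ratios of 0.51 and 0.27, the highest mean of complex IV. *COX7C*, on 10 spots, had ratios of 0.16 and 0.30. *NDUFA4*, now named *COXFA4* and placed in complex IV, is outside the symbol rule. Its log2 ratios were 0.19 and 0.29, and its paralog *NDUFA4L2* was not well above background on all arrays.

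Complex V, the ATP synthase, had the lowest median with siRNA #7, -0.06 (8 of 18 higher), and a median of 0.15 with siRNA #8 (13 of 18 higher), which was -0.06 under E1A scaling and 0.02 with normexp. With siRNA #7 the median was -0.37 under E1A scaling, -0.17 with normexp and 0.05 among the members of the brightest 10% of genes. *ATP5F1A*, the alpha subunit of the catalytic head, had levels of 7.71, 7.64 and 8.02 (log2 ratios -0.07 and 0.31). *ATP5F1B*, the beta subunit, had levels of 6.33, 6.50 and 6.51 (log2 ratios 0.17 and 0.18). The siRNA #8 array was the high one for *ATP5F1A*, and the ratios of *ATP5F1B* were within 2 spot-to-spot SD of 0. The 5 ATP5F members had medians of 0.17 and 0.18, and the 13 ATP5M and ATP5P members had medians of -0.07 and 0.11.

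The genes for the c subunit of the rotor ring, *ATP5MC1*, *ATP5MC2* and *ATP5MC3*, encode the same mature protein but did not have the same ratios. *ATP5MC1* had levels of 6.36, 6.81 and 6.75 and log2 ratios of 0.45 and 0.39, the highest mean of complex V. *ATP5MC2* had levels of 7.89, 7.34 and 8.20 and log2 ratios of -0.55 and 0.31. *ATP5MC3* had ratios of 0.05 and 0.11. With the neighbouring spots removed, the ratio of *ATP5MC2* with siRNA #7 was 0.17, of the opposite sign. *ATP5MGL*, a paralog of the *ATP5MG* gene for subunit g, was the lowest of complex V by the mean of both ratios. Its levels were 4.48, 4.32 and 3.89, with log2 ratios of -0.16 and -0.60, or 1.51-fold lower with siRNA #8. With the neighbouring spots removed these were 0.03 and -0.45, and the ratio with siRNA #8 was -0.58 with quantile normalization and -0.54 with the percentile over bright probes, none of them past 1.5-fold. *ATP5MG* itself had ratios of -0.28 and -0.36. Whether the *ATP5MGL* probe also reads *ATP5MG* transcripts was not tested.

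The direct comparison of siRNA #8 with siRNA #7 does not use the control array. The median log2 ratio of the members was 0.03, against -0.01 over all passing genes, with 43 higher (57.33%) and 32 lower with siRNA #8. Of all passing genes 48.85% were higher. At least 1.5-fold higher were 3 members, where 8.89% of all passing genes were, and 0 were at least 1.5-fold lower, where 11.6% were. The 3 were *ATP5MC2* (log2 0.86), *NDUFB3* (0.74) and *NDUFA3* (0.72), the latter pair accessory subunits of complex I. *NDUFB3* had levels of 6.25 with siRNA #7 and 6.99 with siRNA #8, on either side of 6.59 in the control. *NDUFA3* had 6.54 and 7.26, also on either side of the control at 6.71 as measured. After removal of the neighbouring spots the ratios of siRNA #8 to siRNA #7 were 0.85 for *NDUFB3*, 0.45 for *NDUFA3* and -0.03 for *ATP5MC2*. Of these only *NDUFB3* was still past 1.5-fold. Against control, *NDUFA3* then had 0.16 with siRNA #7 and 0.61 with siRNA #8, no longer on either side of it. *NDUFB3* had -0.16 and 0.69, still on either side. The median of the NDUFA, NDUFB and NDUFC members was 0.17 (18 of 26 higher with siRNA #8) and that of the NDUFS and NDUFV members was -0.10 (4 of 11 higher), a difference that was not tested.

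**Figure D3:**
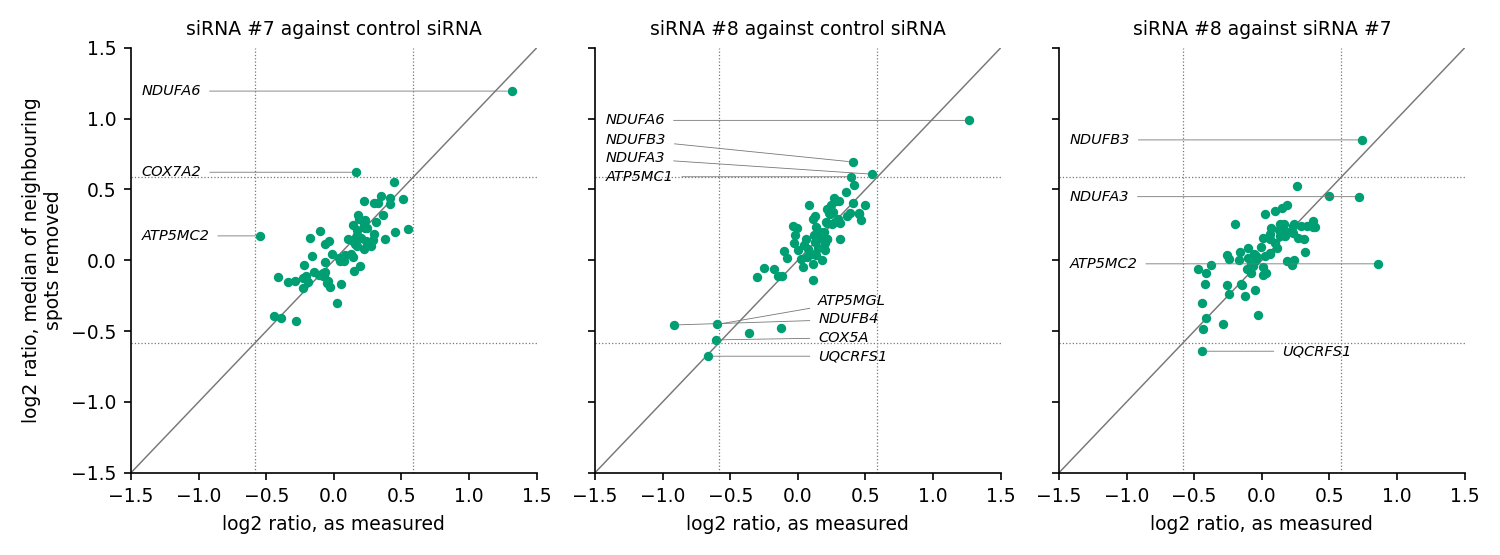
Log2 ratio of each of the 75 passing members as measured (horizontal axis) and after the median deviation of the spots within 3 rows and 3 columns was removed (vertical axis), in each of the 3 comparisons; the diagonal marks equal values and dotted lines 1.5-fold. *NDUFA6* stays far from 0 on both axes, while *ATP5MC2* goes from -0.55 to 0.17 with siRNA #7 and *NDUFB4* from -0.91 to -0.46 with siRNA #8.

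For 13 members several probes passed, which gives a check that the spot error does not. The gap between the probes of a gene had a median of 0.18 with siRNA #7 and 0.10 with siRNA #8 on the log2 scale, near the spot-to-spot SD. The probes differed in sign for 7 of the 13 genes with siRNA #7 and for 3 with siRNA #8. Gaps over 0.5 were seen for *COX5A* with both siRNAs (1.05 and 2.23) and for *ATP5MF*, a membrane subunit of the ATP synthase, with siRNA #8 (0.72). The *ATP5MF* probes had ratios of 0.30 and -0.42 with siRNA #8.

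**Figure D4:**
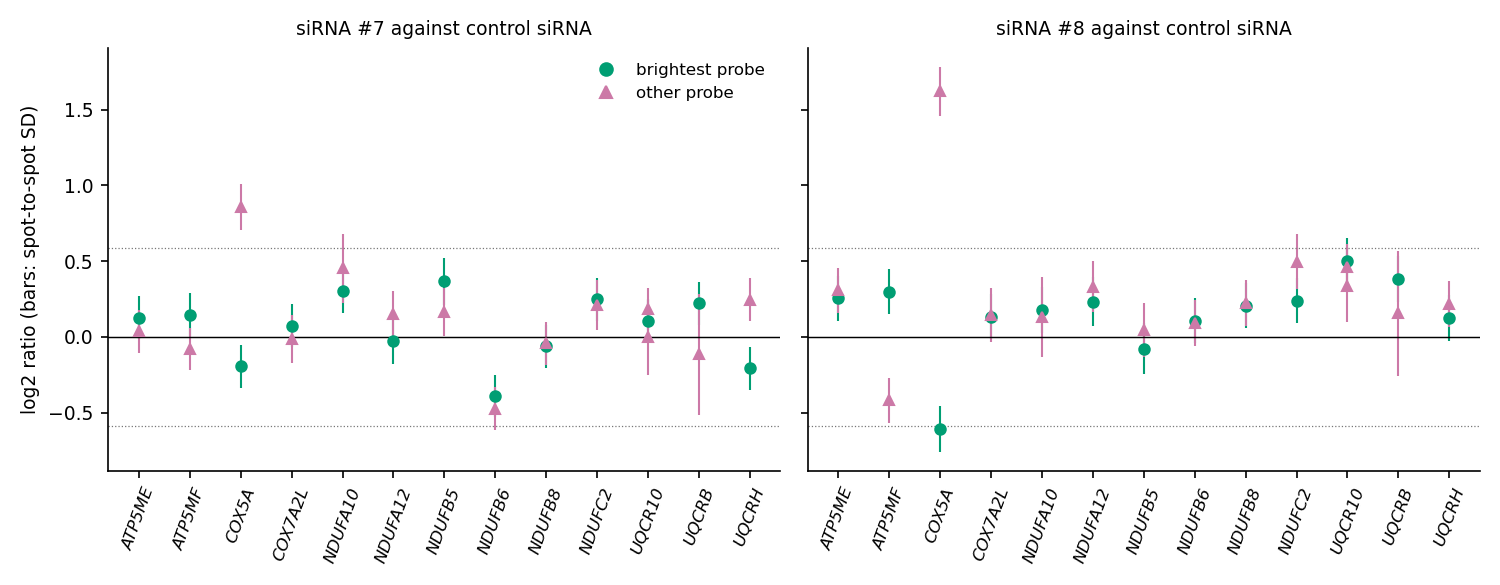
Log2 ratio to control siRNA (vertical axis) of every passing probe of the 13 members with more than 1 such probe (horizontal axis), for siRNA #7 (left) and siRNA #8 (right); green circles are the brightest probes, pink triangles the other probes, bars the spot-to-spot SD and dotted lines 1.5-fold. The probes of *COX5A* lie 1.05 and 2.23 apart and those of *ATP5MF* 0.72 apart with siRNA #8, while the other gaps are under 0.5.

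When both siRNA arrays were taken as 1 group against the control array and fitted with limma across all passing genes, 0 of the 75 members passed a Benjamini-Hochberg adjusted p under 0.05, and 1 of 12031 genes did (0.00831%). At an unadjusted p under 0.05 stood 1 member, *NDUFA6* (mean log2 ratio 1.29), against 3.23% of all passing genes. This fit assumes that the lone control array varies like the siRNA arrays.

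Members with the promoter letters were set beside those without them. The 19 with the ETS letters had median log2 ratios of 0.14 and 0.17 with siRNA #7 and siRNA #8, and the 44 without them 0.04 and 0.19. For the NRF1 letters the medians were 0.05 and 0.17 with them and 0.11 and 0.18 without. For the YY1 letters they were 0.20 and 0.21 with them and 0.07 and 0.15 without. These differences were not tested. The gene *GABPA*, the DNA-binding subunit of the ETS factor GABP, had a signal of 103.3 in the control, 43.7 after siRNA #7 and 41.5 after siRNA #8, and log2 ratios of -0.91 (spot-to-spot SD 0.25) and -1.01 (SD 0.26). It was the only one of the 11 passing regulators of mitochondrial genes past 1.5-fold against control. Of all passing genes 7.56% were at least 1.5-fold higher and 6.93% lower with siRNA #7, and 7.79% and 10.3% with siRNA #8. With siRNA #8 the regulators *NRF1* and *TFAM* fell just short, at -0.579 (spot-to-spot SD 0.34) and -0.566 (SD 0.17). *NRF1* was read from a dim probe, with signals of 51.7, 35.3 and 28.0, and its ratio was within 2 SD of 0. With siRNA #7 *NRF1* and *TFAM* had -0.22 and 0.25. The median of the regulators was 0.10 with siRNA #7 and -0.13 with siRNA #8, and *PPARGC1A* did not pass.

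Among the other nuclear genes of the chain, none of complex II, the cytochromes or the assembly factors of complexes I and III was past 1.5-fold against control. These lists are small. Of all passing genes 7.56% were at least 1.5-fold higher and 6.93% lower with siRNA #7, and 7.79% and 10.3% with siRNA #8. The 4 subunits of complex II (*SDHA* to *SDHD*), which feeds electrons from succinate, had medians of -0.02 and 0.10. *CYC1* and *CYCS*, for cytochromes of the chain, had medians of 0.09 and 0.07. The 17 passing assembly factors of complex I had medians of 0.05 and 0.02. The 5 of complex III had medians of 0.23 and -0.02.

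The 24 passing assembly factors of complex IV had medians of 0.05 with siRNA #7 and 0.06 with siRNA #8 (SD over genes 0.36 and 0.48, against 0.46 and 0.49 over all passing genes). With siRNA #7, 2 were at least 1.5-fold higher and 1 lower, where 7.56% and 6.93% of all passing genes were. With siRNA #8, 3 were higher and 3 lower, where 7.79% and 10.3% were. *COA3*, which acts in the synthesis of the COX1 subunit, had signals of 677.0, 428.7 and 236.7 and log2 ratios of -0.33 and -1.21. *SCO2*, a copper chaperone, had ratios of 0.70 and 0.59. *PET100* had 0.43 and 0.79. *COA3* was low on the siRNA #8 array above all, while *SCO2* and *PET100* were high on both siRNA arrays. These 3 had the largest mean ratios by size among the factors past 1.5-fold. The others past it were so with only 1 of the siRNAs. *COX11* had -0.19 and -1.01, *PET117* -0.0037 and -0.60, *COX20* -0.97 and 0.05, *COX14* 0.69 and 0.25, and *COX19* 0.10 and 0.59. Of the 4 passing assembly factors and inhibitors of the ATP synthase, *ATPAF2* was the only one past 1.5-fold against control, with log2 ratios of -1.12 and -0.18. No probe was named for the 13 mitochondrially encoded subunits, which were not analysed here.

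**Figure D5:**
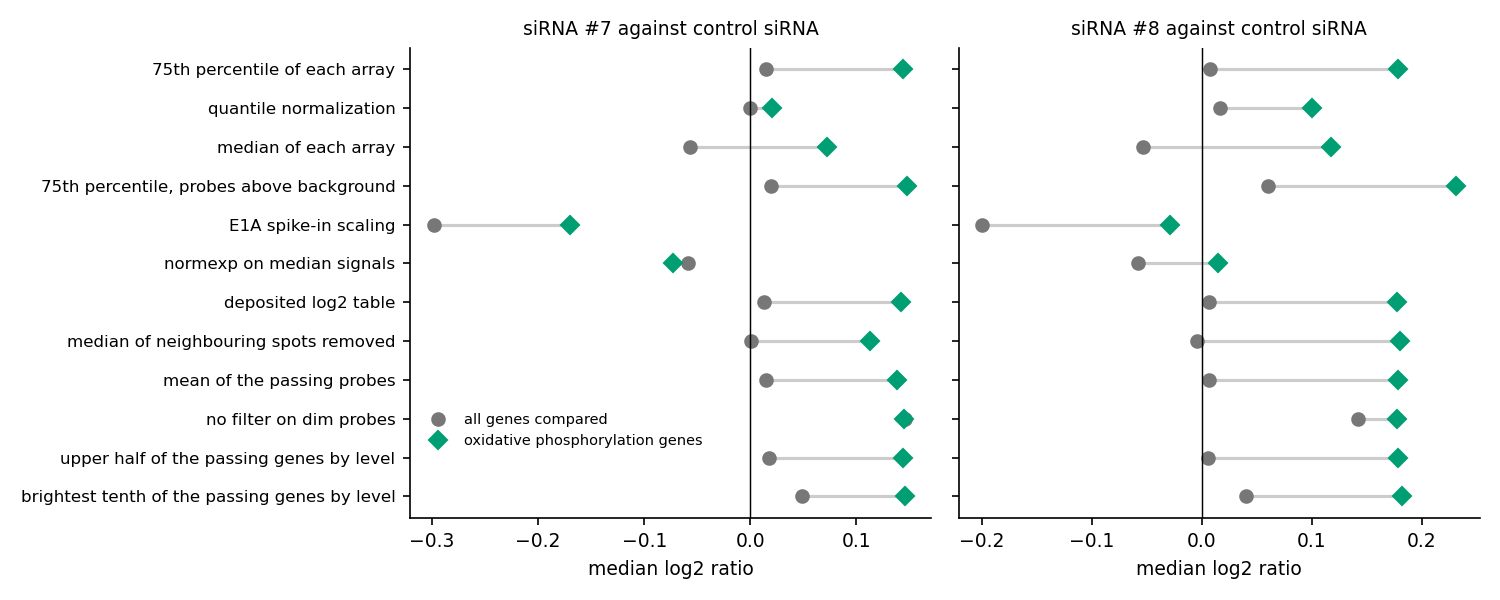
Median log2 ratio to control siRNA (horizontal axis) of the oxidative phosphorylation genes (green diamonds) and of all genes compared (grey circles) under each way of processing the arrays (vertical axis), for siRNA #7 (left) and siRNA #8 (right). The diamonds lie right of the circles in most rows, by 0.13 and 0.17 as reported. They do not with siRNA #7 under normexp or without the filter on dim probes. E1A scaling puts both medians below 0. Array medians, the percentile over bright probes, E1A scaling and the deposited values each shift a whole array by a constant. Their gap is therefore the reported one by construction.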

How the data were processed

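Gene expression of HCT116 cells was measured on 3 one-colour Agilent arrays, 1 per condition. Spot intensity was deposited by the authors as Agilent Feature Extraction 11.5.1.1 wrote it, background-subtracted and not scaled between arrays. A second deposited table holds log2 values for 21189 probes, each centred on its median over the arrays. Its normalization is not given in the sources used here. Differences between arrays in it equal those of the 75th percentile scaling up to a constant.

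Levels were computed in Python 3.11.15 (numpy 2.4.6, pandas 2.3.3). Outlier spots were left out, spots of a probe averaged, and the 75th percentile of each array subtracted on the log2 scale. A probe was well above background when at least 50% of its spots were flagged so. Genes were named through RefSeq, 30000 of 50593 probes matching, and the brightest passing probe was used. The array design was annotated on GRCh37, so no probe coordinates are given. Arrays were mapped to siRNAs by the sample labels, since the deposited names number the siRNAs differently.

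No test was made between single arrays. The error is the SD of probes printed 10 times, pooled within 6 ranges of signal. The number of arrays limits the precision. Named members are those past 1.5-fold against control, the highest and lowest of each complex, chosen catalytic subunits, isoform pairs and members whose probes disagree. *NDUFA3*, *NDUFB3*, *ATP5MC2*, *ATP5MC3*, *ATP5MG* and the members printed 10 times were added after their values were seen. The members and lists were chosen with earlier results of these data known. Alternatives were scaling by quantiles, by array medians, by the percentile over bright probes and by E1A spike-ins (10 probes), normexp with an offset of 50 on median signals, the deposited log2 values, subtraction of what neighbouring spots share, the mean of probes, other filters, 2-fold and limma 3.58.1 in R 4.3.3. The steps were tested on simulated data. The totals include 1 member that is not reported here.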

Additional observations from a re-analysis of the deposited data

How the results depend on the processing

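The median ratio of all members was -0.17 with siRNA #7 and -0.028 with siRNA #8 under E1A scaling, and -0.073 and 0.015 with normexp. As reported it was 0.14 and 0.18. Quantile normalization gave 0.02 and 0.10, and the other alternatives 0.07 to 0.15 with siRNA #7 and 0.12 to 0.23 with siRNA #8. The spot-to-spot SD is the error of a single gene and gives none for these medians. Counts of members at least 1.5-fold higher with siRNA #7 (1 as reported) were 2 with the neighbouring spots removed, 5 without the filter on dim probes and 0 in the brightest 10% of genes, an alternative chosen after seeing the data that holds no *NDUFA6*. Members at least 1.5-fold lower with siRNA #7 (0 as reported) numbered 1 with quantile normalization, the median of each array or no filter, 7 under E1A scaling and 2 with normexp. With siRNA #8, the count higher (1 as reported) was 2 with the percentile over bright probes, 4 with the neighbouring spots removed and 0 in the brightest 10%. The count lower (4 as reported) was 2 with the percentile over bright probes, 1 with the neighbouring spots removed and 0 at 2-fold. Over all alternatives the count lower ran from 0 to 6. Between siRNA #8 and siRNA #7, the count higher (3 as reported) was 1 with the neighbouring spots removed and 0 at 2-fold, and the count lower (0 as reported) was 1 with normexp or the neighbouring spots removed and 2 without the filter. With the mean of its probes *COX5A* turned to 0.51 with siRNA #8. The causes were not tested. The alternatives kept the direction of *NDUFA6*, *NDUFB4* and *UQCRFS1* against control, with ranges for siRNA #8 of 0.97 to 1.32, -1.12 to -0.46 and -0.87 to -0.61. No paired analysis was possible because a condition is 1 array. Culture-to-culture variation was not measured, and dim probes set no direction.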

Other observations

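Genes of the mitochondrial matrix outside the chain gave other medians than the subunits. The 11 passing enzymes of the TCA cycle had medians on the log2 scale of -0.27 (siRNA #7 over control, 9 of 11 lower) and -0.02 (siRNA #8 over control, 6 of 11 lower). Of all passing genes 51.6% and 50.8% were higher than control. *CS*, citrate synthase, had a signal of 6622 in the control, 3241 after siRNA #7 and 5115 after siRNA #8, and log2 ratios of -0.70 and -0.07. *IDH3A*, the catalytic subunit of NAD-dependent isocitrate dehydrogenase, had log2 ratios of -0.56 and -0.62. *DLST*, a subunit of the 2-oxoglutarate dehydrogenase complex, had -0.27 and -1.15. The siRNA #7 array was the low one for *CS* and the siRNA #8 array for *DLST*.

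The 77 genes for proteins of the mitochondrial ribosome, all with a passing probe, had medians of -0.03 and -0.01, with 37 higher and 40 lower than control in either comparison. With siRNA #7, 4 were at least 1.5-fold higher and 3 lower, where 7.56% and 6.93% of all passing genes were, and with siRNA #8 3 and 2, where 7.79% and 10.3% were. These shares of the ribosomal genes were below those of all passing genes. *MRPL33* had signals of 524.7, 976.1 and 1054 and log2 ratios of 1.22 and 1.31. *MRPL14* had 1.13 and 1.08. *MRPL58*, a peptidyl-tRNA hydrolase, had -0.44 and -1.26. The control array, which is common to both ratios, was the low one for *MRPL33* and *MRPL14*.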
